A study of Mus musculus with 62 samples.

Results

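Soleus muscle of mice injected with cachectic melanoma cells (CAC) was compared with soleus muscle of mice injected with non-cachectic melanoma cells (NCAC), 8 weeks after the injection. The libraries were chosen by their labels alone: 7 CAC and 5 NCAC libraries, 12 of the 62 in the series. The series measured polyadenylated RNA of the soleus, a mostly slow-twitch muscle of the lower hind leg, at 2, 4, 6 and 8 weeks in CAC, NCAC and mock-injected (Con) mice. The mice were female and 2 months old. The labels disagree on the strain (C57BL/6J in the sample entries, NCI Ath/nude in the design text), and the extraction text mentions an injection of LLC cells, so the strain is not settled here. The sources used here do not name the melanoma lines, so each tumour group may stand for 1 line. Libraries of a group are called biological replicates and no label ties one to an animal, so p-values measure the spread between these libraries. The 5 Con libraries of week 8 are given beside some of the results, as values only.

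Cachexia is the loss of muscle and fat that accompanies many tumours. Cytokines of the interleukin-6 family bind receptors that share the gp130 subunit, Janus kinases then phosphorylate the transcription factor STAT3, and STAT3 induces acute phase genes together with its own inhibitor Socs3. Glucocorticoids and FOXO transcription factors induce the genes of muscle protein breakdown, among them the ubiquitin ligases Trim63 (MuRF1) and Fbxo32 (atrogin-1), and both routes are active in wasting muscle.

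Values are transcript abundances scaled by length to sum to 1000000 in each library (TPM), so the number of reads behind a value is unknown. Between 12422 and 13182 genes reached 1 TPM in the CAC libraries and between 12069 and 13029 in the NCAC libraries. Libraries of a group were less alike than at earlier weeks: the mean correlation of a library with the others of its group, across genes, was 0.944 to 0.970 in CAC and 0.944 to 0.963 in NCAC, against 0.979 to 0.991 over all libraries of weeks 2 to 6. Several libraries stood apart. CAC replicate 3 had acute phase levels close to those of NCAC. CAC replicate 6 had 2039.9 TPM of the fast myosin Myh4, with 5.53 to 23.6 TPM in the other 6 CAC libraries, and 93.5 TPM of the liver transcript albumin (Alb), with 0.277 to 7.15 TPM in the others. NCAC replicate 2 had the highest mitochondrial share, and NCAC replicate 3 had the most immunoglobulin kappa (Igkc, 92.4 TPM). The slow myosin Myh7, which defines slow fibres, was abundant in all 12 libraries: it lay between 453 and 4671 TPM in CAC and between 985 and 2891 TPM in NCAC.

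At 8 weeks, 1449 of 12896 tested genes were higher in CAC than in NCAC (11.2%) and 190 were lower (1.47%), at an adjusted p under 0.05 from limma on log2(TPM + 1). A fold change on this scale understates the change of genes with low values. Differences are CAC minus NCAC on this scale, ± gives their standard error, and adjusted p-values are those of limma. The median tested gene was 0.17 higher in CAC, and a median-of-ratios rescaling of the libraries moved that median by 0.158, to 0.02. With rescaled values, 303 genes were higher (2.35%) and 285 lower (2.21%), so the share of calls that were higher went from 88.4% to 51.5%. All 303 of these higher genes and 169 of the lower genes were called with both scalings. Single libraries mattered too. Leaving out NCAC replicate 4 gave 438 higher genes, leaving out CAC replicate 2 gave 614, and leaving out CAC replicate 6 gave 2805. The count of higher genes was 863, 823 and 944 without CAC replicate 1, 4 or 5, and 877 and 773 without NCAC replicate 3 or 5. The calls that held in each of the 12 fits with 1 library left out numbered 412 higher and 51 lower genes, of which 266 and 51 were also called after rescaling. Every CAC library lay above every NCAC library for 812 genes (6.3%) and below for 61 genes (0.473%). In this bulk tissue, more cells of a type and more RNA per cell cannot be told apart.

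**Figure D1:**
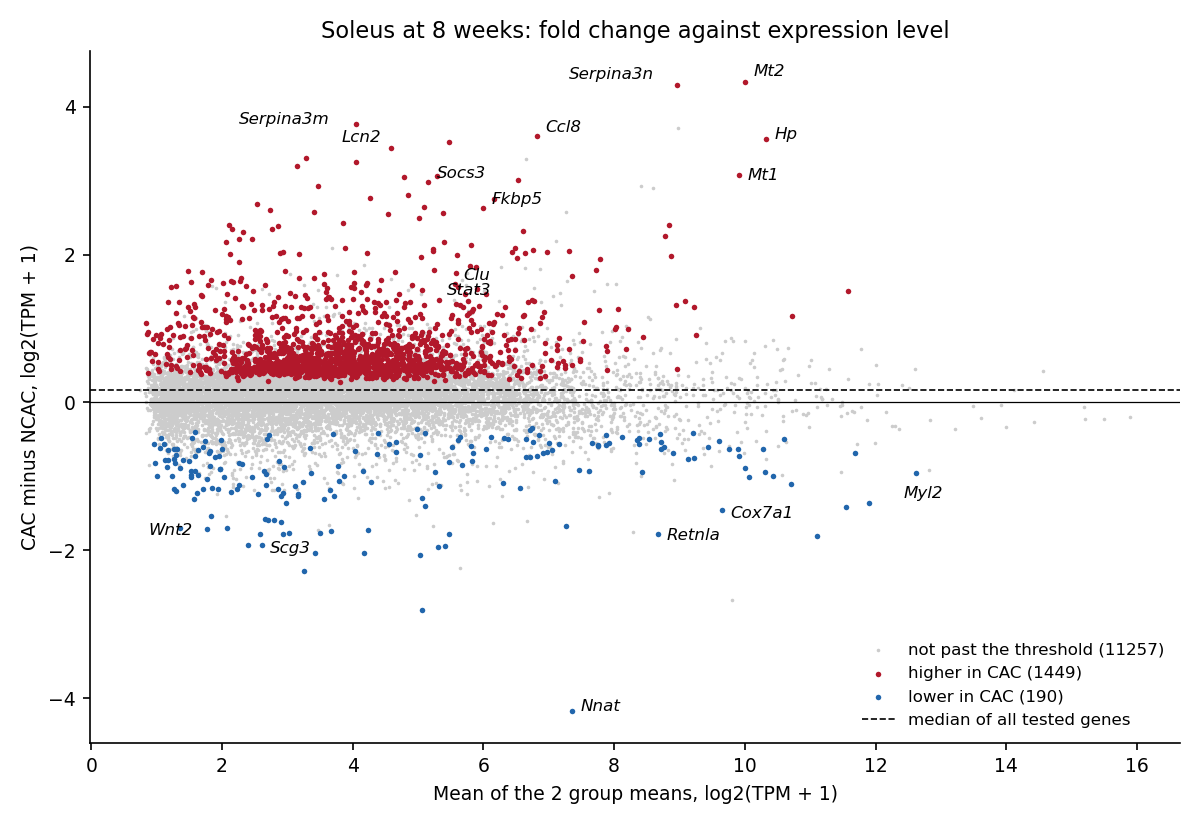
Each point is 1 of the 12896 tested genes, with the mean of the group means as log2(TPM + 1) on the x axis and the CAC minus NCAC difference on the y axis. The 1449 higher genes (red) reach 4.33, the 190 lower genes (blue) reach -4.18, and the median of all tested genes (dashed) is 0.17.

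Most acute phase and STAT3 genes rose. Of the 30 genes of the list, 26 passed the filter on low values, and 21 of them rose, none fell, against 11.2% and 1.47% of all tested genes. Their median difference was 1.78 (all tested genes 0.17), and 16 rose after rescaling. Between 14 (without CAC replicate 2, NCAC replicate 4 or NCAC replicate 5) and 22 (without CAC replicate 3) rose in the fits with 1 library left out, and 20 rose without CAC replicate 6, the library with albumin. With both CAC replicate 6 and NCAC replicate 2 left out, a choice made after seeing the data, 18 rose. The fibrinogen genes Fga, Fgb and Fgg and hemopexin (Hpx), which the liver makes, did not pass the filter. Of 14 hepatocyte markers, a list chosen after the values were seen, 4 were tested and none passed (1 at an unadjusted p under 0.05), and their summed level was 379 to 2368 TPM in CAC, 152 to 995 TPM in NCAC and 68.0 to 679 TPM in Con.

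Receptors of the pathway and STAT3 itself were higher. Stat3 (chr11:100885098-100939540, mm10) lay between 42.95 and 67.3 TPM with a median of 61.3 TPM in CAC, and at 21.3, 18.8, 20.3, 20.96 and 22.9 TPM in the 5 NCAC libraries. No library of one group reached into the other, and the Con libraries lay between 22.4 and 28.04 TPM, near NCAC. The difference was 2.62-fold (1.39 ± 0.13 on the log2(TPM + 1) scale, adjusted p = 0.000594, higher in 7 of 7 CAC libraries than the NCAC mean). The receptor of oncostatin M, Osmr, lay between 9.29 and 22.1 TPM with a median of 19.2 TPM in CAC and between 2.63 and 5.42 TPM in NCAC (log2 1.73, adjusted p = 0.00112), again without overlap. The shared receptor subunit Il6st (gp130) rose by 0.55 (adjusted p = 0.0284) and the IL-6 receptor Il6ra by 1.12 (adjusted p = 0.0481). After rescaling Il6st was called (adjusted p = 0.0463) and Il6ra was not (adjusted p = 0.121).

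Socs3, the feedback inhibitor of the pathway, lay between 15.9 and 85.3 TPM with a median of 67.7 TPM in CAC and at 8.37, 4.37, 5.84, 5.17 and 8.998 TPM in NCAC. CAC replicate 3 was the lowest of its group and still above the highest NCAC library. The difference was 7.91-fold (2.98 ± 0.35 on the log2(TPM + 1) scale, adjusted p = 0.000912). Bcl3, an atypical inhibitor of NF-kB that STAT3 induces, lay between 6.95 and 18.5 TPM in CAC and between 1.17 and 3.497 TPM in NCAC (log2 2.00, adjusted p = 0.00155). Cebpd, a transcription factor of the acute phase response, lay between 46.3 and 392 TPM with a median of 185 TPM in CAC and at 67.8, 7.59, 74.9, 58.2 and 38.6 TPM in NCAC. The groups overlapped, since CAC replicate 3 lay below 3 NCAC libraries. Its difference of 2.03 passed (adjusted p = 0.0434), but not after rescaling (adjusted p = 0.0939), nor without CAC replicates 1, 2, 4 or 7 or NCAC replicates 1, 2, 4 or 5 (adjusted p up to 0.0839).

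Secreted acute phase proteins were among the 12 greatest rises. Serpina3n (chr12:104406729-104414329), a serine protease inhibitor, lay between 88.7 and 1422 TPM with a median of 1113 TPM in CAC and at 63.6, 14.04, 30.99, 84.4 and 29.3 TPM in NCAC. CAC replicate 3, at 88.7 TPM, was just above the highest NCAC library, and the other 6 CAC libraries were at 642 TPM or more. The difference was 19.6-fold (4.29 ± 0.64 on the log2(TPM + 1) scale, adjusted p = 0.00381). Its neighbours in the Serpina3 cluster, Serpina3m (log2 3.77, adjusted p = 0.00223) and Serpina3k (log2 3.20, adjusted p = 0.00885), rose as well. Serpina3k lies within the annotated span of Serpina3m, and members of the cluster are alike in sequence, so their separate values are uncertain.

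Haptoglobin (Hp, chr8:109575128-109579172), which binds free haemoglobin, lay between 349 and 6840.5 TPM with a median of 1991 TPM in CAC and at 232, 47.6, 161, 334 and 83.9 TPM in NCAC. CAC replicate 3 was again the lowest of its group, 349 TPM beside an NCAC maximum of 334 TPM. The difference was 11.9-fold (3.57 ± 0.68 on the log2(TPM + 1) scale, adjusted p = 0.0101). Lcn2 (lipocalin 2, which binds bacterial siderophores) lay between 2.799 and 114 TPM with a median of 36.9 TPM in CAC and between 0.753 and 3.66 TPM in NCAC (log2 3.44, adjusted p = 0.00967). Serum amyloid A1 (Saa1) lay between 0.9505 and 368 TPM with a median of 43.9 TPM in CAC and between 0.757 and 3.402 TPM in NCAC (log2 3.53, adjusted p = 0.029), with CAC replicate 3 inside the NCAC range. The Saa1 call ended after rescaling (adjusted p = 0.0592) and without CAC replicates 1, 2 or 4 or NCAC replicates 2, 3, 4 or 5 (adjusted p up to 0.0686), and Saa1 shares much of its sequence with Saa2.

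**Figure D2:**
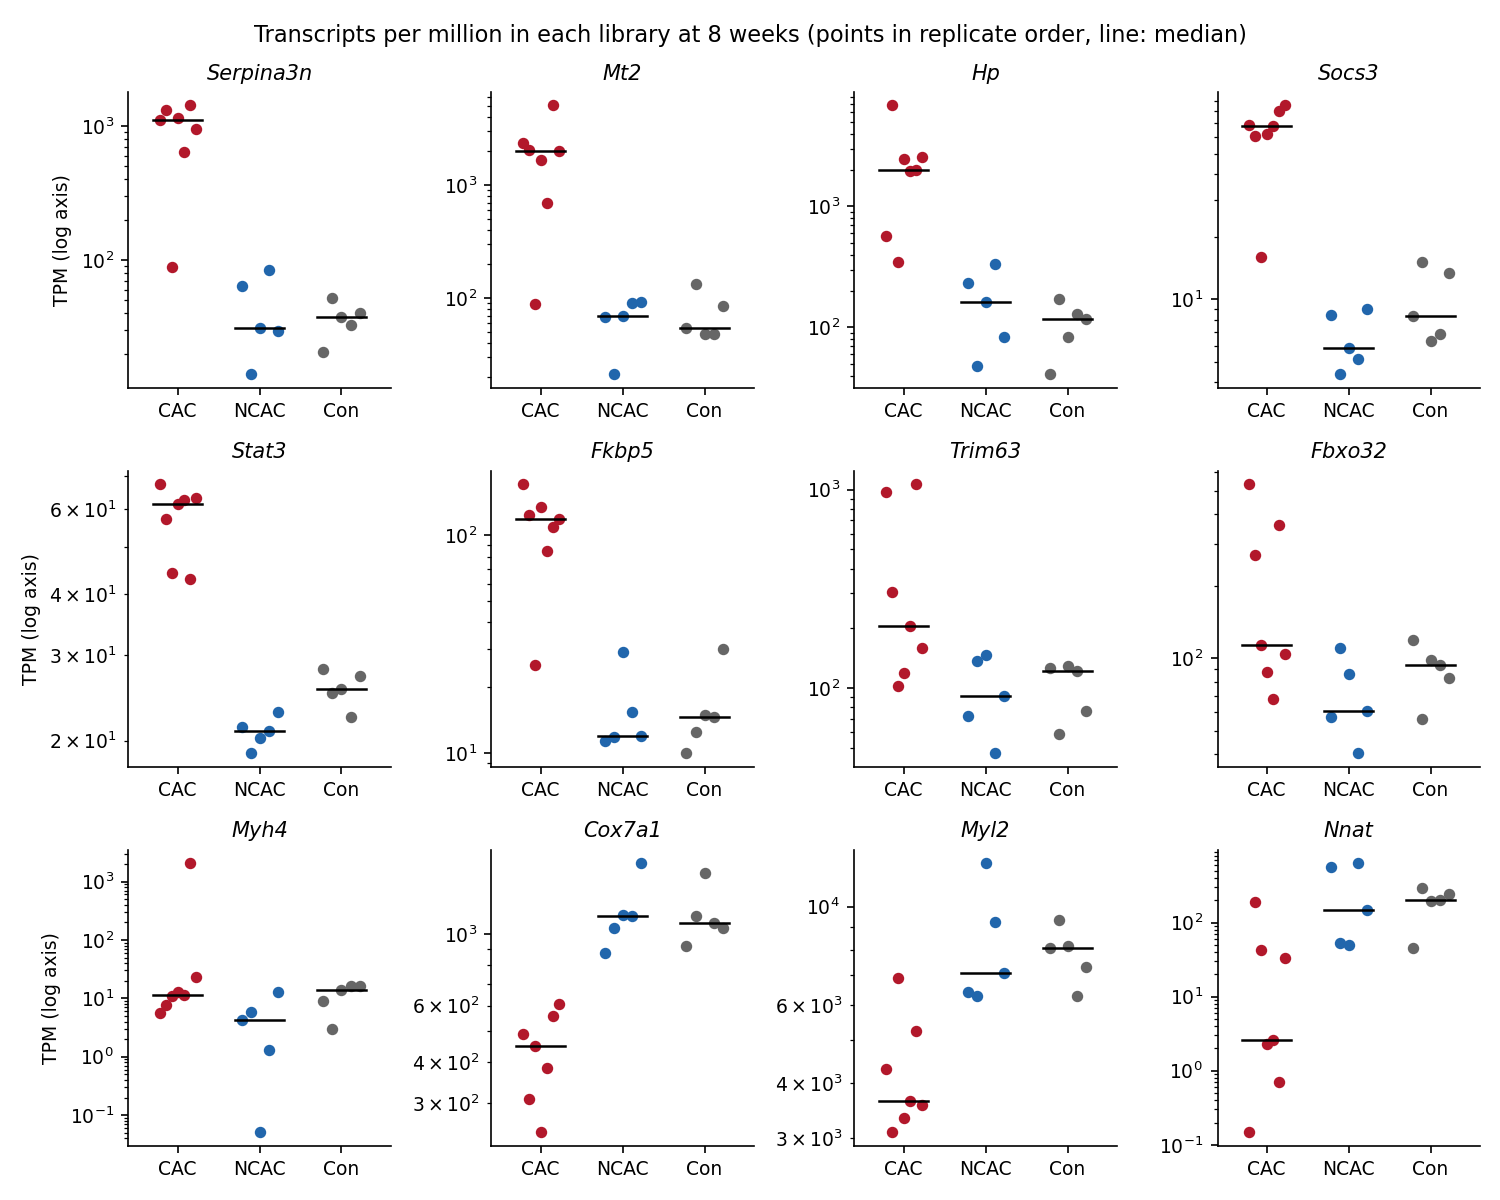
TPM on a log axis for 12 genes in each library of week 8, with points in replicate order and a line at the median of each group. For Serpina3n, Socs3 and Fkbp5 the third CAC point lies far below the other 6, while for Stat3 the 7 CAC libraries (43.0 to 67.3 TPM) and the 5 NCAC libraries (18.8 to 22.9 TPM) do not overlap.

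Metallothioneins bind zinc and copper and are induced by metal, glucocorticoids and inflammation. Of 12 tested genes of the metallothionein and zinc transporter list, 4 rose (all genes 11.2%) and none fell (3 after rescaling, 3 to 6 with 1 library left out, 3 without NCAC replicate 4 or 5 and 6 without CAC replicate 6). Mt2 (chr8:94172664-94173568) had the greatest rise of all named genes. It lay between 89.4 and 5052 TPM with a median of 1979 TPM in CAC and at 68.8, 21.3, 69.9, 91.5 and 91.8 TPM in NCAC, so CAC replicate 3 lay among the NCAC values and the other 6 CAC libraries far above them. The difference was 20.1-fold (4.33 ± 0.79 on the log2(TPM + 1) scale, adjusted p = 0.00933). Mt1 (chr8:94179082-94180327) lay between 136 and 4634 TPM with a median of 1721 TPM in CAC and at 158, 65.7, 188, 185 and 170.1 TPM in NCAC (log2 3.07, adjusted p = 0.016), and CAC replicate 3 was again within the NCAC range. Mt1 and Mt2 are close in sequence, so reads may be split between them. Slc39a14 (ZIP14), a zinc importer, lay between 6.28 and 93.9 TPM with a median of 52.3 TPM in CAC and at 3.74, 3.75, 6.55, 2.97 and 2.97 TPM in NCAC (log2 3.05, adjusted p = 0.00608). The zinc exporter Slc30a1 lay between 10.5 and 21.6 TPM in CAC and between 8.46 and 12.2 TPM in NCAC (log2 0.68, adjusted p = 0.0228), and its call ended after rescaling (adjusted p = 0.11) and without NCAC replicates 4 or 5 (adjusted p up to 0.0621).

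The 250 bases before the RefSeq start of both metallothionein genes are shown because these neighbours on chromosome 8 rose together. These starts differ from those of the gene positions above. The Mt2 window ends short of its gene position, and the Mt1 window reaches into its own. Capitals mark each match on either strand to TGCNCNC, a loose pattern for the metal response element core (GRCm38.p6, plus strand, chr8:94172368-94172617 for Mt2 and chr8:94178839-94179088 for Mt1).
Mt2: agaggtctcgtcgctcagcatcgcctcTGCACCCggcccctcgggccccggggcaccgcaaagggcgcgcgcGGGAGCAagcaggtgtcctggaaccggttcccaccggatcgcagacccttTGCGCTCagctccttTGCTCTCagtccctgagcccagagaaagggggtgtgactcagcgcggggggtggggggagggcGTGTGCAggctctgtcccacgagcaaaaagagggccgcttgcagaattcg
Mt1: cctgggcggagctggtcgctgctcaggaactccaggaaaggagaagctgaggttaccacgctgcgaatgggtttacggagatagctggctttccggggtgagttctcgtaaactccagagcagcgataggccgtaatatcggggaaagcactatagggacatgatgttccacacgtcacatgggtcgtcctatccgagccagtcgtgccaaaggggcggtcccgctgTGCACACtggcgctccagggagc
There were 5 matches in the Mt2 sequence and 1 in that of Mt1. The pattern is short and loose, so a match need not be a metal response element. Of the 9693 promoters of tested genes, 52.7% held at least 1 match. The STAT dimer site TTCNNNGAA was found in 1 of 17 promoters of the risen acute phase genes (5.88%), that of Socs3, against 6.06% of tested genes, and the glucocorticoid receptor motif TGTTCT in 3 of 17 (17.6%) against 10.8%. The pattern TGCNCNC was in 7 of 17 (41.2%). These matches describe the windows searched and show no binding.

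Other genes among the 12 greatest rises were a chemokine, a phospholipase and liver-type secreted proteins. Ccl8, a chemokine for monocytes, lay between 63.6 and 424 TPM with a median of 163 TPM in CAC and at 60.2, 4.13, 3.95, 19.8 and 17.5 TPM in NCAC. All CAC libraries were above all NCAC libraries, although 1 Con library reached 233 TPM. The difference was 12.1-fold (3.60 ± 0.61 on the log2(TPM + 1) scale, adjusted p = 0.00717). Fetub (fetuin B, a protease inhibitor of plasma) lay between 2.69 and 34.9 TPM in CAC and stayed between 0.144 and 0.802 TPM in NCAC (log2 3.31, adjusted p = 0.00218). Pla2g5, a secreted phospholipase, lay between 1.82 and 49.8 TPM in CAC and between 0.43 and 3.66 TPM in NCAC (log2 3.25, adjusted p = 0.0104). Plac8 lay between 8.93 and 186 TPM and between 2.34 and 7.73 TPM (log2 3.06, adjusted p = 0.00967). Without CAC replicate 6, which held albumin and apolipoprotein A1 (Apoa1, 31.7 TPM), Fetub (adjusted p = 0.0037) and Serpina3k (adjusted p = 0.00559) were still called.

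Targets of the glucocorticoid receptor rose in part. Of 18 tested members 10 rose (all genes 11.2%), none fell, and their median was 1.07, but 3 rose after rescaling (all genes 2.35%). The count was 3 without CAC replicate 2, 4 without NCAC replicates 2, 4 or 5, 6 without CAC replicate 7 and 12 without CAC replicate 3, and 5 with both CAC replicate 6 and NCAC replicate 2 left out. Fkbp5, a co-chaperone of the receptor, lay between 25.3 and 172 TPM with a median of 119 TPM in CAC and at 11.3, 11.8, 28.98, 15.4 and 11.9 TPM in NCAC. CAC replicate 3 lay below NCAC replicate 3, and the other 6 CAC libraries lay well above both. The difference was 6.203-fold (2.63 ± 0.40 on the log2(TPM + 1) scale, adjusted p = 0.00433). Zbtb16, a zinc finger repressor, lay between 29.1 and 147 TPM in CAC and between 16.9 and 28.6 TPM in NCAC (log2 1.56, adjusted p = 0.0126), and the phosphatase Dusp1 between 60.6 and 122 TPM and between 25.2 and 70.1 TPM (log2 1.201, adjusted p = 0.0173). Errfi1, an inhibitor of EGF receptors, rose too (log2 2.03, adjusted p = 0.0245), though not after rescaling (adjusted p = 0.0525) or without CAC replicate 2 or NCAC replicate 4 (adjusted p up to 0.061). The receptor itself, Nr3c1, differed by -0.31 (adjusted p = 0.281).

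Ubiquitin ligases of muscle atrophy gave a mixed picture. Trim63, which tags thick filament proteins for breakdown, lay between 103 and 1063 TPM with a median of 207 TPM in CAC and at 72.7, 137, 146, 47.02 and 91.1 TPM in NCAC. CAC replicates 1 and 6 were the highest, at 979 and 1063 TPM, and the groups overlapped. The difference of 1.60 did not pass (adjusted p = 0.0852). Fbxo32 lay between 67.5 and 531 TPM with a median of 114 TPM in CAC and at 56.9, 110.4, 86.3, 40.3 and 60.6 TPM in NCAC, with the same 2 CAC libraries highest, and did not pass either (log2 1.31, adjusted p = 0.0884).

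Of the 22 tested members of this list 7 rose (all genes 11.2%) and none fell, with a median of 0.38 (all genes 0.17), and 2 rose after rescaling (all genes 2.35%). With 1 library left out the count lay between 2 (without NCAC replicate 4) and 9 (without CAC replicate 6), and was 3 or 4 without CAC replicates 1, 2, 4 or 5 or NCAC replicates 1, 3 or 5. Minus the NCAC mean, the list median of single libraries was 0.20 to 0.86 in CAC and -0.17 to 0.15 in NCAC. In Con it was 0.11 to 0.35, a range that overlapped both. The summed level was 2752 to 7744 TPM in CAC, 2127 to 3170 TPM in NCAC and 2092 to 3391 TPM in Con. Fbxo31, an F-box protein, lay between 41.6 and 351 TPM with a median of 132 TPM in CAC and at 24.97, 33.3, 51.5, 23.8 and 27.6 TPM in NCAC (1.96 ± 0.41 on the log2(TPM + 1) scale, adjusted p = 0.0139), and CAC replicate 3 was inside the NCAC range. Cblb, a ligase for signalling receptors, lay between 10.7 and 23.3 TPM and between 6.93 and 11.2 TPM (log2 0.81, adjusted p = 0.0161). Fbxo31 and Cblb were called after rescaling as well, whereas Ubr2 (log2 0.79, adjusted p = 0.0173) was lost there (adjusted p = 0.0892) and without NCAC replicate 4 (adjusted p = 0.0525). Foxo3, the transcription factor upstream of these ligases, rose 2.12-fold, between 17.5 and 52.4 TPM in CAC against between 9.81 and 13.8 TPM in NCAC (adjusted p = 0.0126), with no overlap. Of the 32 proteasome subunits 5 rose and of the 29 autophagy genes 4, near the 11.2% of all tested genes, and none of either list after rescaling. Neither list had a call without CAC replicate 2 or NCAC replicate 4, and without CAC replicate 6 the counts were 7 and 8.

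Immediate early genes, which respond to growth factors, cytokines and stress within minutes, were often higher. Of 22 tested members 12 rose (all genes 11.2%), none fell, with a median of 0.98, and 5 rose after rescaling. The count was 7 to 13 with 1 library left out, lowest without NCAC replicate 4. Junb lay between 43.6 and 184 TPM with a median of 82.8 TPM in CAC and at 24.01, 18.5, 21.97, 20.4 and 33.2 TPM in NCAC (1.84 ± 0.28 on the log2(TPM + 1) scale, adjusted p = 0.00509). Every CAC library lay above every NCAC library, and the same held for Fos (between 10.9 and 128 TPM against between 1.82 and 9.51 TPM, log2 2.55, adjusted p = 0.0122), Fosl2 (log2 1.39, adjusted p = 0.0076) and Ier3 (log2 1.198, adjusted p = 0.00218). All 4 were called after rescaling too.

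The NF-kB list had 7 of 21 tested members higher (all genes 11.2%) and none lower (5 after rescaling, 5 to 8 with 1 library left out). Nfkbiz, an IkB protein that STAT3 and NF-kB both induce, lay between 5.696 and 10.5 TPM in CAC and between 1.82 and 2.97 TPM in NCAC (log2 1.25, adjusted p = 0.00112). Map3k14, the kinase of the non-canonical NF-kB route, lay between 4.45 and 8.06 TPM and between 2.17 and 4.14 TPM (log2 0.95, adjusted p = 0.00668), and the adhesion molecule Icam1 between 15.3 and 25.5 TPM and between 5.44 and 14.5 TPM (log2 0.90, adjusted p = 0.0196). All 3 separated the groups without overlap. Of 36 tested interferon and MHC class I genes, 1 rose (all genes 11.2%), Mx2 (not without NCAC replicate 4). None of the 6 MHC class II genes passed, nor had any an unadjusted p under 0.05.

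Of 22 tested complement genes 8 rose and none fell, against 11.2% and 1.47% of all tested genes, with a median of 0.83, and 5 rose after rescaling (all genes 2.35%). Their summed level overlapped, 4294 to 14082 TPM in CAC and 1808 to 10042 TPM in NCAC. The count was 4 without CAC replicate 2, 5 without CAC replicates 1 or 4 or NCAC replicate 4, and 10 without CAC replicate 3. Clu (clusterin), a chaperone that inhibits the terminal complex, lay between 47 and 87.3 TPM with a median of 74.1 TPM in CAC and at 27.8, 19.97, 15.4, 25.1 and 24.6 TPM in NCAC (1.60 ± 0.17 on the log2(TPM + 1) scale, adjusted p = 0.000701). C6, a part of the membrane attack complex, lay between 2.22 and 11.3 TPM in CAC and between 0.07604 and 0.893 TPM in NCAC (log2 2.34, adjusted p = 0.00186). Vtn (vitronectin), another terminal inhibitor, lay between 29.5 and 109 TPM and between 14.96 and 29.5 TPM (log2 1.76, adjusted p = 0.00549). For all 3 the groups did not overlap, although for Vtn the lowest CAC and the highest NCAC library both round to 29.5 TPM. C3, the central component, lay between 268 and 1016 TPM with a median of 669 TPM in CAC and at 271, 47.95, 103, 262 and 385 TPM in NCAC (log2 1.99, adjusted p = 0.0225), with CAC replicate 3 below the 2 highest NCAC libraries.

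Chemokines did not move one way. Of 17 tested, 3 rose and 1 fell with either scaling (all genes 11.2% higher and 1.47% lower), and 3 to 5 rose with 1 library left out, 5 without CAC replicate 3. Besides Ccl8, Cxcl14 lay between 138 and 1201 TPM with a median of 745 TPM in CAC and between 63.6 and 203 TPM in NCAC (log2 2.25, adjusted p = 0.014), and Ccl19, which guides dendritic cells, between 2.31 and 7.34 TPM and between 0.742 and 2.9 TPM (log2 1.12, adjusted p = 0.02). Ccl24 (eotaxin 2, for eosinophils) fell: it lay between 2.47 and 15.5 TPM with a median of 6.02 TPM in CAC and at 40.8, 6.81, 27.8, 27.5 and 37.6 TPM in NCAC (log2 -1.72, adjusted p = 0.0265). NCAC replicate 2, at 6.81 TPM, was the only NCAC library inside the CAC range, and the call ended without CAC replicates 1 or 2 or NCAC replicates 1, 3, 4 or 5 (adjusted p up to 0.0686).

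**Figure D3:**
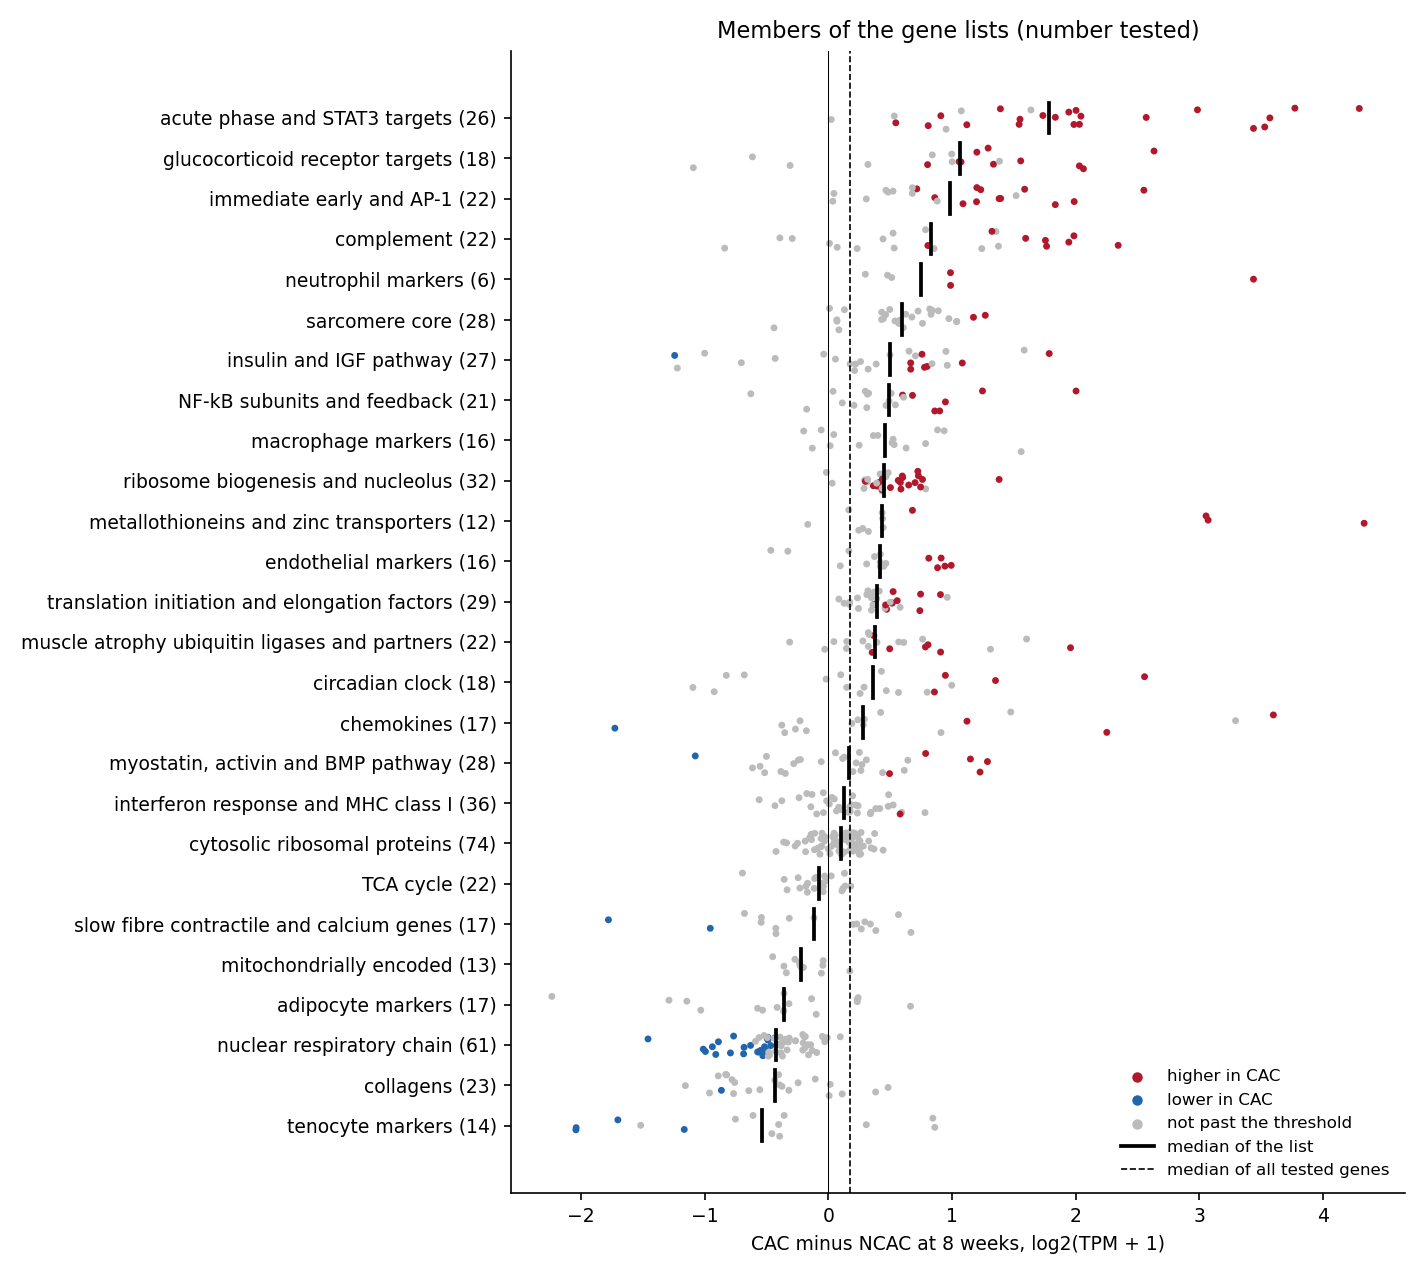
Members of 26 gene lists as points on the CAC minus NCAC axis, with red for higher, blue for lower and grey for genes that did not pass. The list medians (black bars) run from -0.53 for tenocyte markers to 1.78 for acute phase and STAT3 targets, and the median of all tested genes (dashed) is 0.17.

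The greatest fall was that of neuronatin (Nnat), a small membrane protein encoded by an imprinted gene. It lay between 0.148 and 190.0 TPM with a median of 2.57 TPM in CAC and at 561, 53.6, 49.3, 628 and 146 TPM in NCAC. CAC replicate 2, at 190.0 TPM, lay above 3 NCAC libraries, while 4 CAC libraries were under 3 TPM. The difference was 18.1-fold lower (-4.18 ± 1.24 on the log2(TPM + 1) scale, adjusted p = 0.0442). It did not pass after rescaling (adjusted p = 0.0602) or without CAC replicates 1, 4 or 5 or NCAC replicates 1, 3, 4 or 5 (adjusted p up to 0.11). Nmrk2, a muscle kinase of NAD synthesis, lay between 0.706 and 74.6 TPM with a median of 5.16 TPM in CAC and at 30.6, 64.6, 15.8, 48.7 and 93.7 TPM in NCAC (log2 -2.80, adjusted p = 0.0391). CAC replicate 3, at 74.6 TPM, was the exception in its group. The Nmrk2 call ended after rescaling (adjusted p = 0.0521) and without CAC replicates 1, 2, 4, 5 or 7 or NCAC replicates 1, 2, 4 or 5 (adjusted p up to 0.0878).

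The firmest falls among the 12 named were those of Scg3, Npr3 and Pthlh, which held in each fit with 1 library left out and after rescaling. Scg3 (secretogranin III, of secretory granules) lay between 0.5295 and 1.94 TPM with a median of 1.12 TPM in CAC and at 18.2, 3.88, 2.42, 10.99 and 9.45 TPM in NCAC, without overlap (-1.92 ± 0.36 on the log2(TPM + 1) scale, adjusted p = 0.00986). Npr3, the clearance receptor of natriuretic peptides, lay between 5.498 and 22.2 TPM with a median of 11.2 TPM in CAC and at 80.3, 31.97, 57.4, 122 and 21.97 TPM in NCAC (-1.96 ± 0.42 on the log2(TPM + 1) scale, adjusted p = 0.0147), and 1 CAC library just passed the lowest NCAC library. Pthlh, the parathyroid hormone-like hormone, lay between 0.5402 and 2.32 TPM in CAC and at 13.1, 4.48, 1.98, 13.1 and 10.1 TPM in NCAC (log2 -1.78, adjusted p = 0.0128). For Pthlh, NCAC replicate 3 lay among the CAC values. Wnt2, chosen after its values were seen, lay between 0.302 and 0.744 TPM in CAC and at 4.06, 1.75, 8.55, 3.39 and 3.78 TPM in NCAC, also without overlap (log2 -1.71, adjusted p = 0.00214).

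The remaining falls among the 12 were less firm. Retnla, a marker of alternatively activated macrophages, lay between 81.6 and 235 TPM with a median of 121 TPM in CAC and at 1083, 183, 167, 597 and 1277 TPM in NCAC (log2 -1.78, adjusted p = 0.0417). Mfap4, a microfibril protein, lay between 3.82 and 20.003 TPM and between 8.62 and 114 TPM (log2 -2.07, adjusted p = 0.0295). Prr32 (log2 -1.92, adjusted p = 0.0433) and Nrep (log2 -1.79, adjusted p = 0.0339) completed them with Pln, Kera and Chad, described below. The calls ended without CAC replicates 1, 2, 4, 5 or 7 or NCAC replicates 1, 4 or 5 for Retnla (adjusted p up to 0.0951), and without CAC replicates 1, 2, 4 or 5 or NCAC replicates 1, 4 or 5 for Mfap4 (up to 0.0759). They ended without CAC replicates 1, 2, 4, 5 or 7 or NCAC replicates 1, 4 or 5 for Prr32 (up to 0.0875) and without CAC replicates 1, 2, 5 or 7 or NCAC replicates 1, 2, 4 or 5 for Nrep (up to 0.085). Prr32 was also lost after rescaling (adjusted p = 0.055).

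Nuclear genes of the respiratory chain fell in part. Of 61 tested subunits 23 fell and none rose, against 1.47% of all genes lower, and 60 of 61 differences were below 0. The median was -0.43, and -0.61 after rescaling, when 13 fell. The count depended on single libraries: 5 fell when NCAC replicate 5 was left out, 6 when NCAC replicate 4 was, 7 when CAC replicate 2 was and 30 when CAC replicate 6 was. It was 11, 9, 10 and 14 without CAC replicates 1, 4, 5 and 7, and 9 without NCAC replicate 3. With both CAC replicate 6 and NCAC replicate 2 left out 24 fell. Every CAC library lay below every NCAC library for 12 of the 61, against 0.473% of all genes.

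Cox7a1, the muscle form of a small subunit of cytochrome c oxidase, changed most. It lay between 243 and 606 TPM with a median of 451 TPM in CAC and at 870.0, 1045, 1146, 1136 and 1653 TPM in NCAC, and no CAC library reached the lowest NCAC library. The difference was 2.74-fold lower (-1.46 ± 0.24 on the log2(TPM + 1) scale, adjusted p = 0.00608). Among complex I subunits, Ndufb2 lay between 33.6 and 45.1 TPM in CAC and between 55.6 and 88.02 TPM in NCAC (log2 -0.79, adjusted p = 0.00608), and Ndufc1 between 92.9 and 155 TPM and between 179 and 296 TPM (log2 -0.91, adjusted p = 0.00906), both without overlap. Ndufa4, assigned to cytochrome c oxidase, lay between 566 and 997 TPM and between 952 and 1677 TPM (log2 -0.89, adjusted p = 0.0121). In the Con libraries Cox7a1 lay between 920.4 and 1544 TPM. Of the 22 TCA cycle genes none passed (1 had an unadjusted p under 0.05). Of 34 genes of fatty acid uptake and oxidation 1 fell (all genes 1.47%), the fatty acid binding protein Fabp3 (-1.42).

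The 13 mitochondrially encoded genes took 27.6% ± 2.90 of all TPM in CAC (SD, n = 7) and 31.4% ± 5.33 in NCAC (SD, n = 5). CAC libraries ranged from 22.5% to 31.6% and NCAC libraries from 25.1% to 39.8%. The difference of -3.75 percentage points did not pass (exact permutation test, two-sided, p = 0.169). Without NCAC replicate 5 it was -5.31 points (exact permutation p = 0.0424). None of the 13 genes passed singly, and none had an unadjusted p under 0.05. Their median was -0.22.

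Few contractile genes passed the test. Of 17 tested slow fibre genes 2 fell (all genes 1.47%) and none rose (1 fell after rescaling, and 4 without CAC replicate 3). Myl2, the slow regulatory light chain, lay between 3096 and 6920.5 TPM with a median of 3646 TPM in CAC and at 6435, 6273, 12525, 9245 and 7076 TPM in NCAC (-0.95 ± 0.26 on the log2(TPM + 1) scale, adjusted p = 0.0335). CAC replicate 3 was the only CAC library above the lowest NCAC libraries. Pln (phospholamban), which restrains the calcium pump of slow muscle, lay between 0.519 and 10.003 TPM with a median of 1.49 TPM in CAC and at 17.9, 8.04, 15.3, 7.06 and 4.15 TPM in NCAC (log2 -1.78, adjusted p = 0.0265), with CAC replicate 3 again highest. The Myl2 call ended after rescaling (adjusted p = 0.0521) and without CAC replicates 1, 2, 4, 5 or 7 or NCAC replicates 3, 4 or 5 (adjusted p up to 0.0868), and the Pln call without CAC replicates 1, 2 or 4 or NCAC replicates 1, 3 or 4 (up to 0.0588).

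Of 7 tested myosin heavy chains 1 rose, the perinatal form Myh8 (all genes 11.2%), and none after rescaling. Myh8, chosen after its values were seen, lay between 1.35 and 79.9 TPM in CAC and between 0.395 and 10.8 TPM in NCAC (log2 2.77, adjusted p = 0.0327, and 0.0621 after rescaling), with a call in 4 of the 12 fits with 1 library left out (adjusted p up to 0.0837). The ranges of the main adult myosins overlapped. Myh7 differed by 0.27 (adjusted p = 0.758) and the IIA myosin Myh2 by 0.31 (adjusted p = 0.693), with CAC between 453 and 1765 TPM and NCAC between 253 and 2117 TPM. Myh1, the IIX myosin, lay between 108 and 1667 TPM with a median of 349 TPM in CAC and at 17.8, 465, 16.7, 9.29 and 337 TPM in NCAC (log2 2.91, adjusted p = 0.0706). For Myh4, the IIB myosin, the difference did not pass (log2 2.58, adjusted p = 0.167), and it was 1.52 without CAC replicate 6 (adjusted p = 0.0729). Of 28 sarcomere core genes 2 rose, a smaller share than the 11.2% of all genes: the intermediate filament desmin (Des) and its partner Cmya5. The list median was 0.59, and none rose after rescaling. The summed level of the list was 30378 to 56262 TPM in CAC, 18786 to 47147 TPM in NCAC and 28378 to 48167 TPM in Con. The Con range overlapped those of both tumour groups, so these genes were not set apart from mock-injected muscle. Des lay between 1799 and 3116 TPM with a median of 2059 TPM in CAC and at 702, 1149, 1889.9, 805 and 829.5 TPM in NCAC (1.17 ± 0.25 on the log2(TPM + 1) scale, adjusted p = 0.0154). Cmya5 lay between 234 and 493 TPM and between 92.3 and 247 TPM (log2 1.27, adjusted p = 0.0173), a call that ended without NCAC replicate 4 (adjusted p = 0.0521). Without CAC replicate 6 10 sarcomere core genes rose, 8 without NCAC replicate 2 and 16 with both left out.

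Genes of ribosome assembly often rose, by small amounts. Of 32 tested members 19 rose (all genes 11.2%), none fell, 31 of 32 differences were above 0 and the median was 0.45. After rescaling 4 rose, with a median of 0.29 beside 0.02 for all genes. The count lay between 10 (without NCAC replicate 4) and 25 (without CAC replicate 6), and was 11 or 12 without CAC replicates 4 or 2, and 20 with both CAC replicate 6 and NCAC replicate 2 left out. Every CAC library lay above every NCAC library for 15 members, against 6.3% of all genes. The summed level of the list was 736 to 1104 TPM in CAC, 553 to 726 TPM in NCAC and 662 to 815 TPM in Con. Nop56, of the box C/D snoRNP, lay between 27.9 and 38.3 TPM in CAC and between 16.5 and 20.7 TPM in NCAC (log2 0.70, adjusted p = 0.00436). The RNA methyltransferase Nop2 (log2 0.65, adjusted p = 0.00545), the helicase Ddx21 (log2 0.76, adjusted p = 0.00554) and Heatr1 (log2 0.72, adjusted p = 0.00651) separated the groups as well. None of the 74 cytosolic ribosomal protein genes passed (1 had an unadjusted p under 0.05), and their median was 0.10. None was called in any fit with 1 library left out. With both CAC replicate 6 and NCAC replicate 2 left out 10 of them fell, beside 436 of all 12896 tested genes.

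Translation factors followed a like pattern, with 10 of 29 tested members higher (all genes 11.2%) and none lower (1 after rescaling, all genes 2.35%). Leaving out NCAC replicate 4 gave 1, CAC replicate 2 gave 4, NCAC replicates 3 or 5 gave 6 and CAC replicate 6 gave 15. Eef2k, the kinase that slows elongation, rose from between 10.6 and 14.5 TPM in NCAC to between 15.1 and 25.6 TPM in CAC (log2 0.74, adjusted p = 0.0126). Eif4ebp2, a repressor of cap-dependent initiation, lay between 44.4 and 101 TPM in CAC and between 41.8 and 48.2 TPM in NCAC (log2 0.75, adjusted p = 0.0187). That call ended after rescaling (adjusted p = 0.0558) and without NCAC replicate 4 (adjusted p = 0.0549).

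In the insulin and IGF list 7 of 27 tested members rose (all genes 11.2%) and 1 fell (all genes 1.47%), Grb14, an inhibitor of the insulin receptor (-1.24, a call lost without CAC replicates 1, 2 or 4 or NCAC replicates 4 or 5). After rescaling 2 rose and 1 fell, and the count of rises was 2 without NCAC replicate 4, 3 without CAC replicate 2 or NCAC replicate 5 and 10 without CAC replicates 3 or 6. Irs2, an adaptor of the insulin receptor, lay between 18.6 and 87.4 TPM with a median of 52.3 TPM in CAC and at 14.1, 10.7, 18.03, 12.8 and 18.6 TPM in NCAC (1.79 ± 0.33 on the log2(TPM + 1) scale, adjusted p = 0.00967). CAC replicate 3 and the highest NCAC library were close, and the groups did not overlap. The receptor Insr (log2 0.80, adjusted p = 0.0249) and the kinase Mtor (log2 0.78, adjusted p = 0.0187) rose, but neither after rescaling (adjusted p = 0.122 and 0.0803). The Insr call ended without CAC replicate 2 or NCAC replicates 4 or 5 (adjusted p up to 0.0699), and the Mtor call without NCAC replicate 4 (adjusted p = 0.056). Igf1 itself differed by 0.22 (adjusted p = 0.73).

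The myostatin, activin and BMP list was split. Of 28 tested members 5 rose and 1 fell (all genes 11.2% and 1.47%), and after rescaling 3 rose and 4 fell (all genes 2.35% and 2.21%). Without CAC replicates 2 or 4 or NCAC replicates 2 or 3 the rises numbered 3, and the falls numbered 2 without CAC replicate 3 and 4 without NCAC replicate 2. The activin receptor Acvr1b lay between 12.5 and 28.9 TPM in CAC and between 6.06 and 9.08 TPM in NCAC (log2 1.23, adjusted p = 0.00916), the TGF-beta receptor Tgfbr1 between 17.3 and 26.02 TPM and between 9.45 and 16.97 TPM (log2 0.79, adjusted p = 0.00885), and the BMP antagonist Nog between 7.395 and 17.2 TPM and between 1.88 and 6.03 TPM (log2 1.29, adjusted p = 0.0115). Each of the 3 separated the groups. The ligand Tgfb2 fell, between 3.71 and 7.33 TPM in CAC and at 13.9, 5.95, 14.2, 12.7 and 12.4 TPM in NCAC (log2 -1.07, adjusted p = 0.0118). Myostatin (Mstn) did not pass the filter, with 12.5 TPM in CAC replicate 6 and at most 1.16 TPM in the other 11 libraries.

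Of 18 clock genes 4 rose and none fell, against 11.2% and 1.47% of all genes, and 2 rose and 1 fell after rescaling (all genes 2.35% and 2.21%). The rises numbered 2 without CAC replicate 2 or NCAC replicates 1, 4 or 5, and 7 without CAC replicates 3 or 6. The nuclear receptor Rora lay between 17.2 and 40.3 TPM with a median of 26.6 TPM in CAC and at 11.6, 9.86, 10.7, 9.75 and 8.52 TPM in NCAC, without overlap (1.35 ± 0.19 on the log2(TPM + 1) scale, adjusted p = 0.00218). Nfil3, a repressor of clock output, lay between 9.81 and 105 TPM with a median of 85.3 TPM in CAC and between 6.41 and 12.7 TPM in NCAC (log2 2.56, adjusted p = 0.00978), and CAC replicate 3 lay inside the NCAC range. Eda2r, a TNF receptor family member and p53 target, lay between 11.3 and 16.7 TPM with a median of 12.6 TPM in CAC and at 6.14, 4.48, 5.02, 5.27 and 3.598 TPM in NCAC (1.29 ± 0.14 on the log2(TPM + 1) scale, adjusted p = 0.000663). It kept its call in each fit with 1 library left out and after rescaling. Cdkn1a, another p53 target, did not pass (log2 1.00, adjusted p = 0.138).

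**Figure D4:**
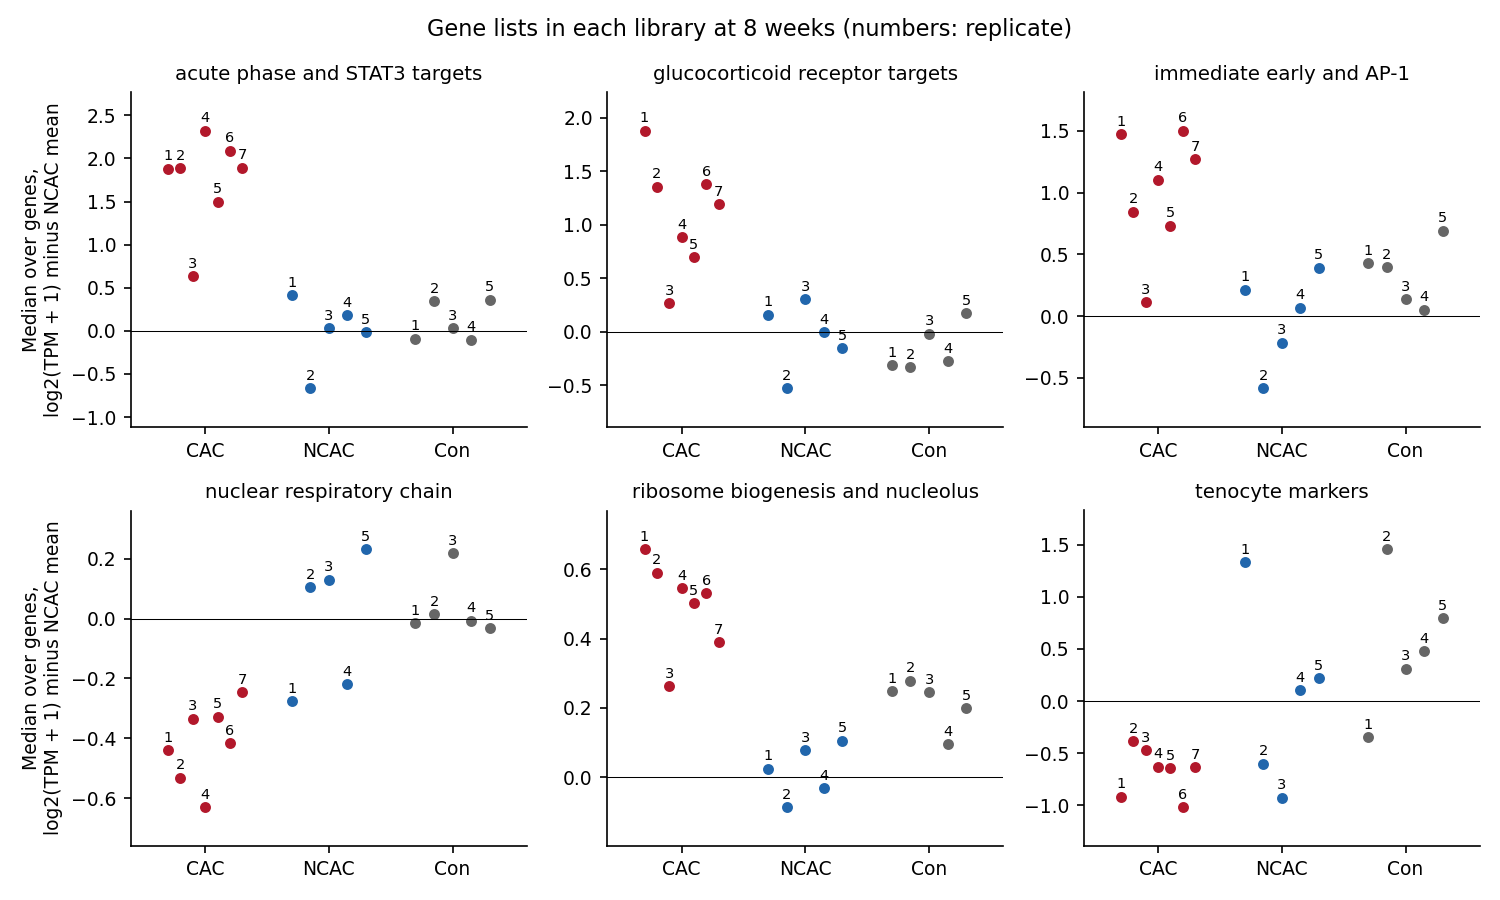
Median over the tested genes of 6 lists in each library, as log2(TPM + 1) minus the NCAC mean, with the replicate number above each point. For acute phase and STAT3 targets CAC replicate 3 (0.64) lies between the other CAC libraries (1.498 to 2.32) and the highest NCAC library (0.42). For the respiratory chain the 7 CAC libraries lie between -0.63 and -0.24 and the 5 NCAC libraries between -0.28 and 0.23. The groups overlap there, since NCAC replicate 1 (-0.28) lies inside the CAC range.

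Markers of cells other than muscle fibres were read as lists. Of 16 endothelial markers 5 rose (all genes 11.2%) and none fell, and 3 rose after rescaling (all genes 2.35%). The count was 3 without CAC replicate 2 or NCAC replicates 3 or 4, and 9 without CAC replicate 6. Their summed level was 859 to 1602 TPM in CAC and 713 to 849 TPM in NCAC, so these ranges did not overlap. In Con it was 721 to 1013.5 TPM, a range that overlapped both. Pecam1, a junction protein of endothelium, lay between 55.2 and 103 TPM in CAC and between 40.1 and 53.01 TPM in NCAC (log2 0.81, adjusted p = 0.0106), and Esam between 26.5 and 51.5 TPM and between 15.97 and 22.8 TPM (log2 0.94, adjusted p = 0.00885). The part of the endothelial markers in the other results was not tested.

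Of 14 tested tenocyte markers 4 fell and none rose (all genes 1.47% lower; 5 fell after rescaling), with 1 fall without NCAC replicate 4, 2 without CAC replicates 1 or 4 or NCAC replicates 1 or 5, and 6 without NCAC replicate 3. The tendon proteoglycan Kera lay between 0.0652 and 8.31 TPM with a median of 2.797 TPM in CAC and at 34.7, 8.03, 4.23, 14.4 and 19.5 TPM in NCAC (log2 -2.04, adjusted p = 0.035), and Chad (chondroadherin) between 1.29 and 11.2 TPM and between 6.94 and 62.9 TPM (log2 -2.04, adjusted p = 0.0316). The Kera call ended without CAC replicates 1, 4, 5 or 7 or NCAC replicates 1, 4 or 5 (adjusted p up to 0.081) and the Chad call without CAC replicates 1 or 4 or NCAC replicates 1, 4 or 5 (up to 0.0769). Cilp2, a cartilage matrix protein, lay between 0.289 and 1.98 TPM and between 1.32 and 12.9 TPM (log2 -1.70, adjusted p = 0.0141) and kept its call after rescaling and in each fit with 1 library left out. The summed tenocyte level was 249 to 516 TPM in CAC, 175 to 773 TPM in NCAC and 272 to 857 TPM in Con, ranges that overlap widely, and the part of tendon in these falls was not tested.

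Of 15 neutrophil markers 6 passed the filter and 3 rose (all genes 11.2%), 1 of them Lcn2, which other cells also make in the acute phase. After rescaling 2 rose (all genes 2.35%), and 1 rose without NCAC replicates 4 or 5. Without Lcn2, the summed level of the other 14 was 28.8 to 117 TPM in CAC and 31.7 to 93.1 TPM in NCAC. No gene passed among 16 macrophage markers (632 to 1637 TPM in CAC, 267 to 1203 TPM in NCAC), 15 fibro-adipogenic progenitor markers, 17 adipocyte markers or 9 mast cell markers. At an unadjusted p under 0.05 these lists held 2, 2, 1 and 4 genes. The mast cell sum was 87.3 to 212 TPM in CAC, 102 to 1077 TPM in NCAC and 346 to 720 TPM in Con. Up to 2 mast cell markers fell with 1 library left out. With both CAC replicate 6 and NCAC replicate 2 left out 3 of the 9 fell, beside 436 of all 12896 tested genes. Adiponectin (Adipoq) lay between 118 and 1303 TPM in CAC and between 182 and 1420.1 TPM in NCAC, a wide spread in both groups.

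T and NK cell markers and tumour markers were low. Of 16 T and NK cell markers 8 stayed under 1 TPM in all 12 libraries and 1 was tested, granzyme A (Gzma), which fell by 0.88, a call held in 3 of the 12 fits with 1 library left out (those without CAC replicate 3, 4 or 6). Their sum was 1.33 to 17.3 TPM in CAC and 3.22 to 6.57 TPM in NCAC. B cell transcripts were present. The 12 B and plasma cell markers had a sum of 111 to 179 TPM in CAC and 74.8 to 299 TPM in NCAC. Igkc lay between 0.102 and 10.7 TPM in CAC and at 3.38, 3.28, 92.4, 1.74 and 2.99 TPM in NCAC. NCAC replicate 3 also had 16.9 TPM of the B cell receptor part Cd79a. Of 11 melanocyte markers 7 stayed under 1 TPM in all 12 libraries. Their sum was 8.495 to 27.3 TPM in CAC, 7.06 to 10.95 TPM in NCAC and 8.21 to 10.5 TPM in Con, with 11.2 TPM of the melanosome protein Pmel in CAC replicate 4.

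The difference between CAC and NCAC at 8 weeks was set against that at 6 weeks in 1 model of 22 libraries. Of 12896 genes 1 passed (0.00775%), Wnt2, a secreted signalling protein, and 904 genes had an unadjusted p under 0.05. At 6 weeks Wnt2 was at most 0.501 TPM in the CAC and NCAC libraries and the groups differed by -0.18. At 8 weeks they differed by -1.71, so the change was -1.52 ± 0.24 (adjusted p = 0.0252). Both NCAC and Con had higher levels at 8 weeks: Wnt2 lay between 0.130 and 0.370 TPM in Con at 6 weeks and between 1.91 and 9.06 TPM at 8 weeks. Con libraries differed between these weeks in other ways too. Their mean mitochondrial share was 39.8% at 6 weeks and 28.7% at 8 weeks. Between 11745 and 11928 genes reached 1 TPM in Con at 6 weeks and between 12687 and 13186 at 8 weeks. For any gene, an effect of time on its level cannot be told apart from such differences between the weeks. The number of genes that passed was 0 with a pseudocount of 0.1, equal weights or without CAC replicate 7, NCAC replicate 1 or NCAC replicate 4. It was 2 after rescaling, 2 or 3 without CAC replicates 1 or 2 or NCAC replicate 5, 9 or 10 without NCAC replicate 3 or CAC replicate 3, and 33 without NCAC replicate 2.

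For 2 of the acute phase genes the difference at 6 weeks was close to that at 8 weeks. The Stat3 difference was 1.43 at 6 weeks and 1.39 at 8 weeks, and the Socs3 difference 3.08 and 2.98. Serpina3n differed by 5.13 and 4.29, and both groups were higher at 8 weeks: the medians went from 269 to 1113 TPM in CAC and from 6.59 to 30.99 TPM in NCAC. None of these 3 changes passed (adjusted p = 0.982, 0.979 and 0.859). Vtn was 0.39 higher at 6 weeks and 1.76 at 8 weeks, and C6 0.71 and 2.34. Neither passed (adjusted p = 0.171 and 0.131).

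**Figure D5:**
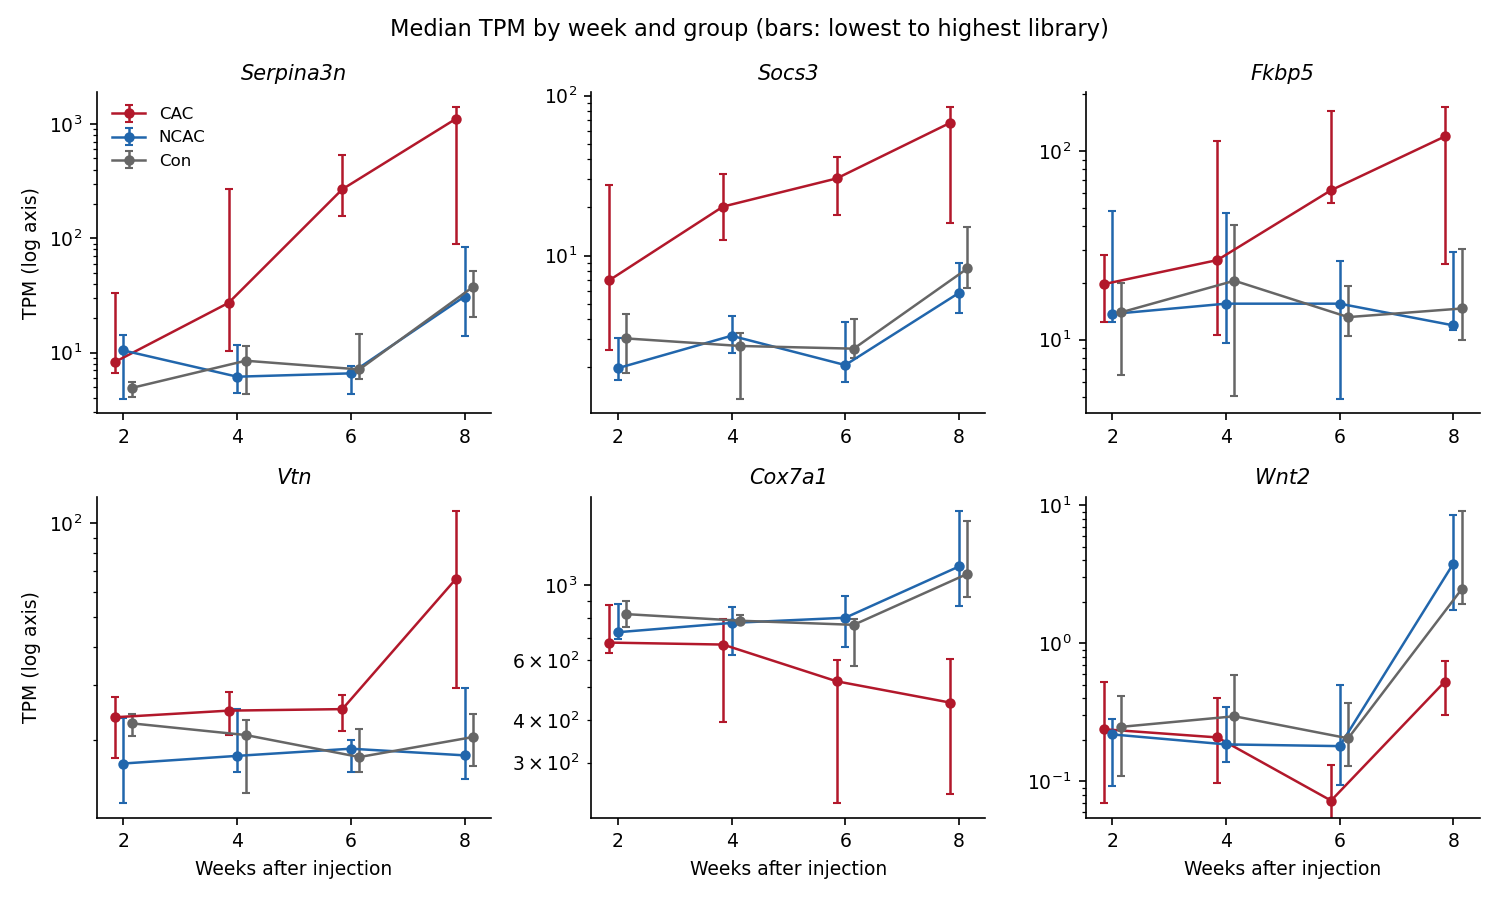
Median TPM on a log axis against weeks after injection for 6 genes, with bars from the lowest to the highest library (for Wnt2 in CAC at week 6 the lowest is 0 and lies off the axis). At week 8 the CAC libraries (0.302 to 0.744 TPM) lie below the NCAC (1.75 to 8.55 TPM) and Con (1.91 to 9.06 TPM) libraries for Wnt2.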

How the data were processed

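The libraries were made from soleus RNA with a stranded mRNA kit, per the labels' protocols. The authors deposited 1 table of TPM values (length-scaled transcript abundances) for 47643 genes and 62 libraries. The submitters' processing notes name mm10 as the build. For the aligner, quantifier and gene annotation, the tool is not given in the sources used here. Gene positions come from GENCODE M21, and promoter sequences from RefSeq (GRCm38.p6).

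Groups were taken from the labels. Genes with at least 1 TPM in at least 5 of the 12 libraries were kept (12896), values were taken as log2(TPM + 1), and limma 3.58.1 (R 4.3.3) with an intensity trend compared 7 CAC with 5 NCAC libraries. P-values were adjusted by Benjamini-Hochberg over all tested genes, with a threshold of 0.05. The change of the difference from 6 to 8 weeks was an interaction in 22 libraries, weighted by the spread of their group. The mitochondrial share was compared by an exact permutation test (Python 3.11.15, scipy 1.17.1), and figures were drawn with matplotlib 3.10.9. The scripts were tested on simulated data. TPM keep no depth, so no counting error is given.

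Named genes were the 12 greatest rises and falls among called genes with a higher group mean of at least 5 TPM, without predicted genes; up to 4 members per described list with the smallest adjusted p; and 20 preset genes. Il6st, Il6ra, Nr3c1, Mx2, Fabp3, Grb14, Gzma, Myh8, Wnt2 and those in the closing part outside this rule were chosen after their values were seen. The members and lists were chosen with earlier results of these data known. Alternatives were a pseudocount of 0.1, no filter, median-of-ratios rescaling, fits with 17 or 62 libraries, weights by group or by library, a replicate block, each library left out and, chosen after seeing the data, CAC replicate 6 and NCAC replicate 2 left out together.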

Additional observations from a re-analysis of the deposited data

Results flagged for a closer look

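In 25 of 214 sets of libraries (1 gene in 1 group), the highest or lowest library stood off the others by a gap test on the log2(TPM + 1) scale (Dixon, 95%), and chance gives about 1 in 20. CAC replicate 3 stood off in 10 of them, as the lowest CAC library except for Ptx4. It had 88.7 TPM of Serpina3n, 2.90 TPM of Serpina3m, 15.9 TPM of Socs3, 25.3 TPM of Fkbp5 and 17.3 TPM of Tgfbr1. It also had 9.81 TPM of Nfil3, 138 TPM of Cxcl14, 29.5 TPM of Vtn and 268 TPM of C3, and as the highest CAC library 1.03 TPM of Ptx4, a pentraxin.

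CAC replicate 6 had the most Myh4 (2039.9 TPM) and Alb (93.5 TPM) and the least Eif4ebp2 (44.4 TPM). The highest Ppargc1a (CAC replicate 7, 53.7 TPM), Cry2 (CAC replicate 1, 98.6 TPM) and Igkc of CAC (replicate 4, 10.7 TPM) stood apart too.

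NCAC replicate 2 was lowest for Mt2 (21.3 TPM), Mt1 (65.7 TPM), Tgfb2 (5.95 TPM) and Ccl24 (6.81 TPM). NCAC replicate 3 was highest for Cdkn1a (52.2 TPM), Slc39a14 (6.55 TPM) and Igkc (92.4 TPM) and lowest for Acvr1b (6.06 TPM). NCAC replicate 1 was highest for Ptx4 (6.75 TPM). The cause of these values was not tested.

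The CAC minus NCAC difference of Wnt2 changed from 6 to 8 weeks by -1.52 on the log2(TPM + 1) scale (limma, adjusted p = 0.0252).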

How the results depend on the processing

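With 1 library left out, the number of called genes ranged from 493 (without NCAC replicate 4) to 3063 (without CAC replicate 6), against 1639. Higher genes ranged from 438 to 2805 and lower genes from 55 to 262. The totals were 588 after rescaling (303 higher), 2945 in the fit of 17 libraries (2620 higher, 325 lower), 5682 in that of 62 libraries (4754 and 928) and 5331 with weights by library (3936 and 1395). With CAC replicate 6 and NCAC replicate 2 left out together they were 2873 (2437 and 436). The fit of 62 libraries shares its spread with weeks 2 to 6, whose libraries were more alike, so its count can be too high. The weights by library were uneven, from 0.279 for NCAC replicate 2 to 4.01 for NCAC replicate 4. A pseudocount of 0.1, no filter and weights by group kept each count within 1.5 times.

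The deviations of same-numbered libraries from their group means had correlations of -0.41, -0.07, -0.10, 0.51 and -0.06, positive for replicate 4 alone. So few values cannot settle whether the numbers pair the libraries. The replicate block gave 95 lower genes and kept 63 of the 90 named calls. It gave 0 genes for the change since week 6.

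For that change the count was 0 with a pseudocount of 0.1 or equal weights, 2 after rescaling, and 0 to 33 with 1 library left out. The difference in mitochondrial share ranged from -1.65 to -5.31 points. Of the 90 named calls, 88 held with a pseudocount of 0.1, 73 without the filter, 69 after rescaling and 61 to 90 with 1 library left out, and none reversed. Depth cannot be read from TPM, so low values such as those of Wnt2 have no counting interval.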

Other observations

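Other gene lists held a few higher members each. Of 20 tested genes of the neuromuscular junction and denervation 4 rose (all tested genes 11.2%) and none fell (1 after rescaling, 2 without CAC replicate 2 or NCAC replicate 4 and 7 with CAC replicate 6 left out). The summed level of the list was 229 to 344 TPM in CAC, 139 to 236 TPM in NCAC and 198 to 299 TPM in Con. The Con range thus overlapped those of both tumour groups, so these rises were not set apart from mock-injected muscle. Musk, the receptor kinase of the junction, lay between 9.98 and 35.0 TPM in CAC and between 4.80 and 8.39 TPM in NCAC, without overlap (log2 1.31, adjusted p = 0.0161, and 0.0549 after rescaling). Runx1, a transcription factor induced by denervation, lay between 1.40 and 4.47 TPM in CAC and between 0.377 and 1.60 TPM in NCAC (log2 1.09, adjusted p = 0.0121).

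Of 25 matrix proteases and inhibitors 3 rose, a share near the 11.2% of all genes. After rescaling 3 rose and 1 fell, and 3 to 7 rose with 1 library left out, with 7 when CAC replicate 3 was left out. The stromelysin Mmp3 lay between 6.88 and 72.9 TPM in CAC and between 1.69 and 13.7 TPM in NCAC (log2 2.81, adjusted p = 0.0109). The aggrecanase Adamts4 lay between 0.360 and 5.19 TPM and between 0.0668 and 0.292 TPM (log2 1.57, adjusted p = 0.0115), without overlap. Of 21 genes of polyamine and NAD metabolism 3 rose, near the 11.2% of all genes, and 1 fell, Nmrk2. After rescaling 1 rose and none fell. With 1 library left out 4 rose without CAC replicate 6, 3 without CAC replicate 3, 2 without NCAC replicate 3 and 1 in each of the other fits. Nampt, the rate-limiting enzyme of NAD salvage, lay between 99.4 and 188 TPM in CAC and between 55.5 and 95.1 TPM in NCAC, again without overlap (log2 0.99, adjusted p = 0.00698).

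Of 5 tested B and plasma cell markers 2 fell (all genes 1.47%), 1 after rescaling and 1 or 2 with 1 library left out, 2 without CAC replicates 4 or 6 or NCAC replicate 2. The heavy chain Ighm lay between 10.5 and 31.3 TPM in CAC and between 17.2 and 74.2 TPM in NCAC (log2 -1.40, adjusted p = 0.0196), a call held in 11 of 12 fits with 1 library left out. Of 23 collagens 1 fell (all genes 1.47%; 3 after rescaling), Col8a1 (log2 -0.86, adjusted p = 0.0370), a call held in 5 of those 12 fits.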
